A study of Homo sapiens with 6 samples.

Results

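The genes examined here encode the subunits of the proteasome and the proteins that assemble, activate or inhibit it, counted by iCLIP with an antibody against Ago2 in H1 cells, a line of human embryonic stem cells. They were chosen by name, as every row of the count table called PSMA, PSMB, PSMC, PSMD, PSME, PSMF or PSMG followed by a number. The rule found 41 of 16199 rows. Of these, 14 encode the core, and 19 are counted with the cap, among them 3 chaperones that help to assemble it. The other 8 encode activators, an inhibitor or assembly factors of the core. A list of 48 human genes of these names was set beside the table. The count table used here held no row named PSMA8, PSMC4 or PSME1. Nor did it hold the inducible and thymic core subunits PSMB8, PSMB9, PSMB10 and PSMB11, so these 7 genes were not analysed here.

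The proteasome is the barrel-shaped protease that breaks down most proteins marked with ubiquitin. Stacked rings of alpha and beta subunits form the core, the beta ring holds the proteolytic sites inside the barrel, and the cap recognises ubiquitin, unfolds the substrate with its ATPase ring and feeds it through the gate of the alpha ring. Other activators can take the place of the cap, and stem cells are known for high proteasome activity.

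The libraries came from hemizygous cells carrying Dicer-S1344L over a frameshift allele, from homozygous cells with Dicer-S1344L on both alleles, and from wild-type cells, with 2 libraries for each of the 3 genotypes. Dicer is the RNase that cuts microRNAs from their precursors, and Ago2 is the protein that carries microRNAs to their target RNAs. All 3 genotypes were grown for 10 days without doxycycline, and each library was made from 2 dishes of cells exposed 2 times to 150.0 mJ per square centimetre of ultraviolet light at 254 nm. Whether each genotype was 1 clone or several, and whether the replicates were separate cultures, was not given in the sources used here, and the p-values below cover the variation among these 6 libraries alone, part of which may be technical. A value is the number of reads assigned to a gene in RNA pulled down with Ago2: more transcript and more binding per transcript cannot be told apart, nor can fewer cells of a type and less RNA per cell.

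Libraries held 38.2 to 52.9 M counts, and the 41 genes took between 0.4374% of them in hemizygous replicate 1 (95% exact binomial interval 0.4353 to 0.4395%) and 0.4524% in wild-type replicate 1 (0.4506 to 0.4542%). These intervals cover counting error only. All 10 markers of human embryonic stem cells were measured, with summed levels of 7923 to 9341 CPM (counts relative to each library's total, adjusted with TMM factors). Of 8 stromal or feeder markers, 5 were measured and summed to 704 to 1048 CPM. Of 7 blood and immune markers 2 were measured (37.3 to 46.4 CPM). Of 5 neural markers 3 were measured (13.6 to 19.8 CPM), and of 5 trophoblast and amnion markers 1 (6.34 to 10.5 CPM).

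**Figure D1:**
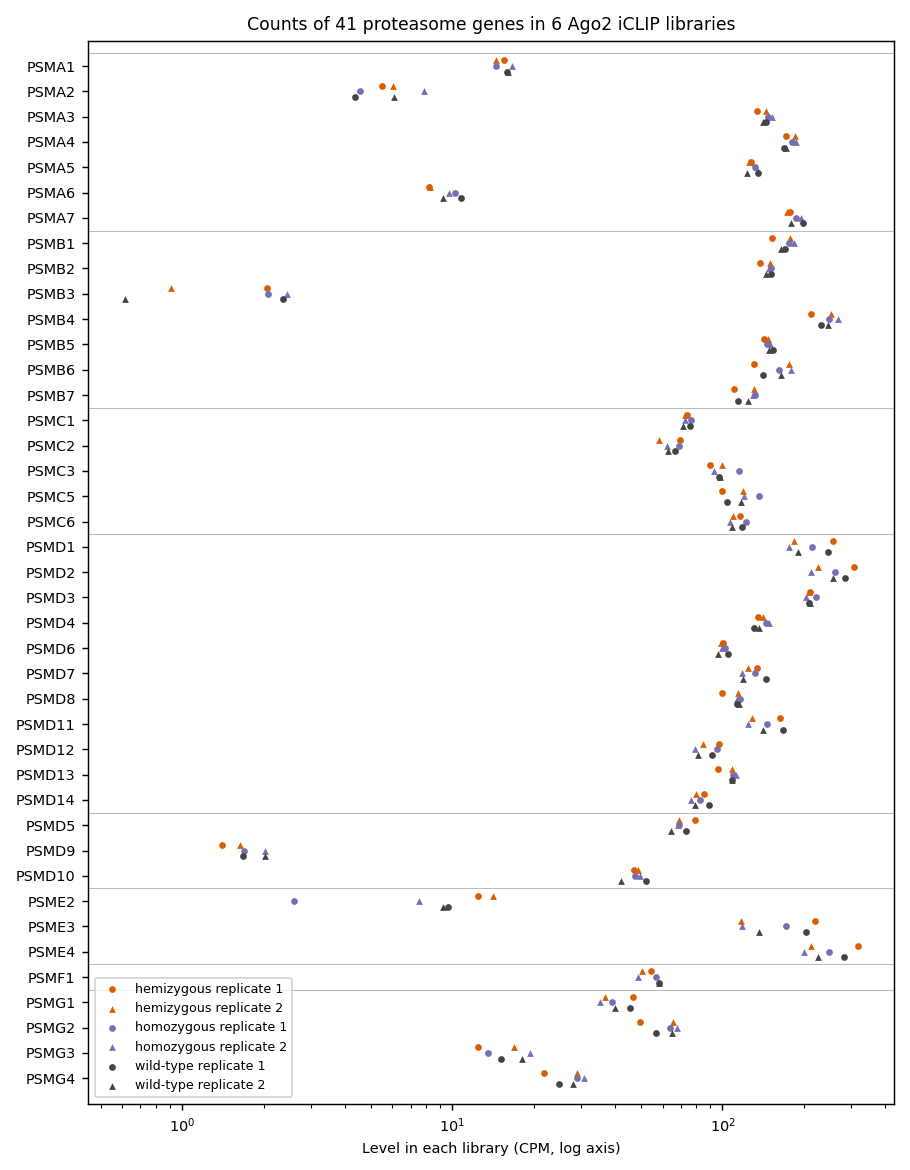
Level of each of the 41 proteasome genes in the 6 libraries, in CPM on a log axis, with a symbol and colour for each library. For most genes the 6 points lie close together, and PSME2 and PSMB3 are spread the widest.

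Proteasome genes varied little between libraries. For each gene the highest library was divided by the lowest, whatever its genotype. The median ratio was 1.23 over the 41 genes, and 1.44 over all 16199 rows. It stayed within 1.5-fold for 35 of the 41 genes (85.4%), and for 56.5% of all rows. Among genes averaging at least 10 CPM, 33 of 36 proteasome genes (91.7%) and 74.4% of rows stayed within that ratio. The median ratio was then 1.21 for proteasome genes and 1.33 for rows. Rows were not matched more closely by level, so the part of level in this evenness was not tested. All 19 cap genes were within it, as were 12 of 14 core genes and 4 of the 8 activator, inhibitor and assembly genes. The most even gene was PSMC1, an ATPase of the cap, with 74.1 and 72.4 CPM in hemizygous replicates 1 and 2, 76.2 and 72.7 CPM in homozygous cells, and 76.1 and 71.7 CPM in wild-type cells. The widest was PSME2, at a ratio of 5.46, followed by the core gene PSMB3 at 3.97, which had only 24 to 122 counts in a library. CPM are not divided by transcript length, which was not used here, so levels are compared between libraries and not between genes.

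The alpha ring of the core, which gates the barrel, was measured through 7 genes. Their mean levels ran from 5.72 CPM for PSMA2 to 185 CPM for PSMA7. PSMA4 had 172 and 186 CPM in hemizygous cells, 181 and 188 CPM in homozygous cells, and 169 and 172 CPM in wild-type cells. Both mutant genotypes were above both wild-type libraries, with the lowest mutant library just above the highest wild-type one. PSMA6 had 8.16 and 8.29 CPM in hemizygous cells, 10.3 and 9.70 CPM in homozygous cells, and 10.8 and 9.26 CPM in wild-type cells. Hemizygous cells were the lowest of the 3 genotypes, and homozygous and wild-type cells overlapped. PSMA7 had 178 and 174 CPM in hemizygous cells, 187 and 196 CPM in homozygous cells, and 199 and 179.8 CPM in wild-type cells, so that hemizygous cells were again the lowest.

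The standard beta ring was complete, with all 7 genes measured. PSMB5, PSMB6 and PSMB7 are its proteolytic subunits, with chymotrypsin-like, caspase-like and trypsin-like activity. PSMB5 had 142 and 147 CPM in hemizygous cells, 146 and 150.0 CPM in homozygous cells, and 154 and 148 CPM in wild-type cells. PSMB6 had 131 and 176 CPM in hemizygous cells, 162 and 180.1 CPM in homozygous cells, and 141 and 164 CPM in wild-type cells. PSMB7 had 110.0 and 130.4 CPM in hemizygous cells, 132 and 129.98 CPM in homozygous cells, and 114 and 124 CPM in wild-type cells. The genotypes overlapped for PSMB6, while for PSMB5 hemizygous cells were below wild-type and for PSMB7 homozygous cells were above it, by less than 10 CPM between the nearest libraries. The interferon-inducible forms that can replace the 3 proteolytic subunits, PSMB8, PSMB9 and PSMB10, are among the genes without a row in the count table used here.

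The cap was measured through 5 ATPases, 11 other subunits and 3 assembly chaperones. The ATPases form the ring that unfolds substrates, and their means ran from 64.9 CPM for PSMC2 to 116 CPM for PSMC5. PSMC5 had 99.9 and 119 CPM in hemizygous cells, 136 and 120.1 CPM in homozygous cells, and 104 and 117 CPM in wild-type cells, so homozygous cells were the highest of the 3 genotypes. PSMD4, a receptor for ubiquitin, had 135 and 142 CPM in hemizygous cells, 144 and 148 CPM in homozygous cells, and 131 and 137 CPM in wild-type cells. Its homozygous libraries lay above all others, and hemizygous and wild-type libraries overlapped. PSMD9, a chaperone that helps to build the ATPase ring, had only 1.41 and 1.63 CPM in hemizygous cells, 1.70 and 2.02 CPM in homozygous cells, and 1.68 and 2.02 CPM in wild-type cells. The other chaperones, PSMD5 and PSMD10, averaged 70.5 and 47.8 CPM.

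The core has its own chaperones, PSMG1 to PSMG4, which act in pairs to build the alpha ring. PSMG1 had 46.6 and 36.7 CPM in hemizygous cells, 39.1 and 35.3 CPM in homozygous cells, and 45.5 and 39.9 CPM in wild-type cells. Its partner PSMG2 had 49.4 and 65.4 CPM in hemizygous cells, 64.0 and 68.1 CPM in homozygous cells, and 56.6 and 65.2 CPM in wild-type cells. In every genotype PSMG1 was higher and PSMG2 lower in replicate 1. PSMG3 had 12.5 and 16.9 CPM in hemizygous cells, 13.5 and 19.4 CPM in homozygous cells, and 15.1 and 18.1 CPM in wild-type cells. PSMG4 had 21.9 and 28.8 CPM in hemizygous cells, 29.1 and 30.8 CPM in homozygous cells, and 24.9 and 27.9 CPM in wild-type cells. Both were lower in replicate 1 of every genotype.

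PSMF1, which inhibits the core in a test tube, had 54.3 and 50.2 CPM in hemizygous cells, 56.7 and 48.8 CPM in homozygous cells, and 58.1 and 58.4 CPM in wild-type cells. All 4 mutant libraries were below both wild-type libraries.

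The activators bind the ends of the core in place of the cap. PSME2 forms an interferon-inducible ring together with the product of PSME1, PSME3 forms a ring of its own in the nucleus, and PSME4 is a large single-chain activator of the nucleus. Their promoters are shown because PSME2 had the widest ratio between libraries, and PSME3 and PSME4 were called between replicate numbers. Each run is the 250 bases before the gene's start in RefSeq, assembly GRCh38.p14, with a searched motif in capitals: for PSME2 chr14:24146611-24146860 (minus strand), for PSME3 chr17:42833147-42833396 (plus strand) and for PSME4 chr2:53970994-53971243 (minus strand).
PSME2: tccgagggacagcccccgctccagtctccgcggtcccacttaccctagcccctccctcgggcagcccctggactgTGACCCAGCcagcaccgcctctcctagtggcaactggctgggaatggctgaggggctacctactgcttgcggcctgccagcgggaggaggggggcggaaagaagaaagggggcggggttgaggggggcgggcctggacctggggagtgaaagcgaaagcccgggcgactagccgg
PSME3: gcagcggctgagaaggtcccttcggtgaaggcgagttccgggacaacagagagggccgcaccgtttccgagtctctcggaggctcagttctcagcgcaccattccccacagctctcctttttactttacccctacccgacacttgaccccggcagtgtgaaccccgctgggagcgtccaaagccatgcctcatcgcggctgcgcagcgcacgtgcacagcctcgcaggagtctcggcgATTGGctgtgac
PSME4: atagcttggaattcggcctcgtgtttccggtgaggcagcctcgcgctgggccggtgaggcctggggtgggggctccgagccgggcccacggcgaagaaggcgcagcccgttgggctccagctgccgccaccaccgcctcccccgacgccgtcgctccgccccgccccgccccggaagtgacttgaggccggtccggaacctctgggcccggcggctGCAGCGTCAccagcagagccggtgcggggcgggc
The motifs searched on both strands were TGACNNNGC, the core of the antioxidant response element that NFE2L1 and related factors bind, and CCAAT. In these windows PSME2 held the first motif starting 175 bases before the start and PSME4 held it, on the other strand, starting 34 bases before it. PSME3 held CCAAT on the other strand, starting 12 bases before the start. Promoters were given for 35 of the 41 genes: 11 (31.4%) held TGACNNNGC, as did 13.2% of 27305 genes, and 17 (48.6%) held CCAAT, as did 37.0% of genes. A match describes these letters in this window and nothing more.

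PSME2 had 12.4 and 14.2 CPM in hemizygous cells (476 and 748 counts), 2.60 and 7.56 CPM in homozygous cells (118 and 307 counts), and 9.60 and 9.21 CPM in wild-type cells (498 and 360 counts). Both hemizygous libraries lay above both wild-type libraries and both homozygous libraries below them, and 115 of all 16199 rows (0.71%) showed the mutants on opposite sides of wild-type in this way. PSME3 had 220.4 and 117 CPM in hemizygous cells, 173 and 118 CPM in homozygous cells, and 203 and 137 CPM in wild-type cells. PSME4 had 317 and 213 CPM in hemizygous cells, 248 and 199.8 CPM in homozygous cells, and 281 and 226 CPM in wild-type cells. For PSME3 and PSME4 the genotypes overlapped, and all 3 libraries numbered 1 were above all 3 libraries numbered 2.

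**Figure D2:**
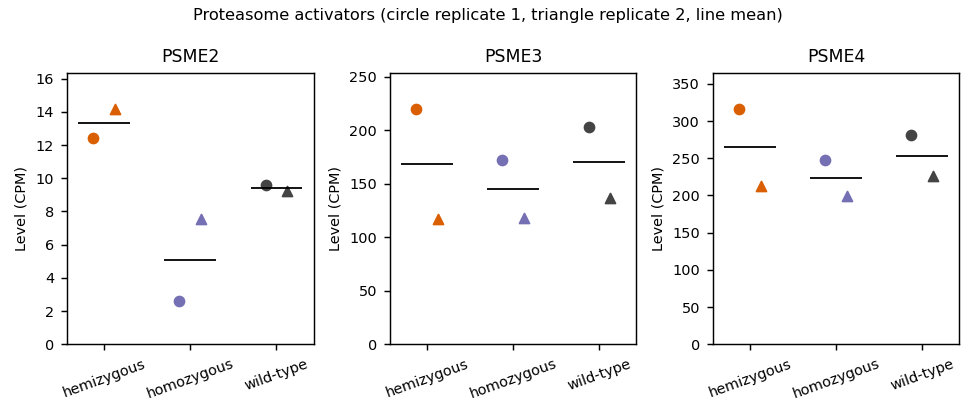
Level in CPM of the activators PSME2, PSME3 and PSME4 in hemizygous, homozygous and wild-type cells, with circles for replicate 1, triangles for replicate 2 and a line at the mean of both. PSME2 is separated by genotype, with hemizygous libraries highest, while PSME3 and PSME4 are separated by replicate number.

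The first comparison asked whether hemizygous cells differed from wild-type. No proteasome gene passed the test: edgeR's quasi-likelihood test called 0 of 41 at a Benjamini-Hochberg adjusted p under 0.05, and 0 of all 16199 rows (0%). At an unadjusted p under 0.05 it counted 0 of 41 proteasome genes and 0.87% of rows, and DESeq2 called 7 rows, none of them a proteasome gene. The smallest p among the 41 belonged to PSMA6, whose level averaged 8.23 ± 0.0935 CPM in hemizygous cells and 10.0 ± 1.09 CPM in wild-type cells (SD, n = 2 each). The log2 fold change was -0.29 (SE 0.18, edgeR adjusted p = 1.00). Leaving out wild-type replicate 1 brought that difference to -0.17.

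The median log2 difference of hemizygous from wild-type cells was -0.03 over the 41 genes, with 30 below 0, and -0.00 over all rows. It was -0.03 for the 14 core genes, -0.02 for the 19 cap genes and -0.05 for the other 8. Among libraries numbered 1 the 41 genes had a median of -0.07, with 28 below 0, and among libraries numbered 2 a median of 0.01, with 17 below 0, so the lean to lower values was not shared by both numbers. The median was 0.01 without wild-type replicate 1, and the cap was then at 0.05, with 13 of 19 genes above 0. The core was at 0.03 without hemizygous replicate 1. The 2 libraries of each genotype did not overlap for 8 of the 41 genes (19.5%), near the 17.3% of all rows, and an exact permutation test of 2 against 2 libraries cannot go below p = 0.333.

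In homozygous cells set against wild-type, again 0 of 41 proteasome genes were called by edgeR, as were 0 of 16199 rows (0%), and DESeq2 called 10 rows and no proteasome gene. At an unadjusted p under 0.05, edgeR counted 0 of 41 proteasome genes and 2.69% of rows. The smallest p was that of PSME2, which averaged 5.08 ± 3.51 CPM in homozygous cells and 9.41 ± 0.277 CPM in wild-type cells (SD, n = 2 each). The log2 fold change was -0.89 (SE 0.45, edgeR adjusted p = 1.00). That value rested on 1 library: it was -0.32 without homozygous replicate 1 and -1.85 without homozygous replicate 2. In the order of p, PSMC5 followed at 0.22, PSMG1 at -0.20, PSMD11 at -0.19 and PSMD4 at 0.13 on the log2 scale.

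By role, the median log2 difference of homozygous from wild-type cells was 0.09 for the core, with 11 of 14 genes above 0, 0.01 for the cap, with 13 of 19 above 0, and -0.16 for the activator, inhibitor and assembly genes, with 6 of 8 below 0. Over all rows it was -0.00. The core median was 0.02 among libraries numbered 1, with 8 of 14 genes above 0, and 0.12 among libraries numbered 2, with 14 of 14 above 0. Without wild-type replicate 2 the core median was 0.04, with 8 of 14 above 0, and without homozygous replicate 2 it was also 0.04. The cap lean did not hold: 7 of 19 cap genes were above 0 among libraries numbered 2, 5 of 19 without homozygous replicate 1 (median -0.05) and 7 of 19 without wild-type replicate 2 (median -0.03). The activator, inhibitor and assembly median was -0.26 without homozygous replicate 1 and -0.04 without homozygous replicate 2. All 3 activators were below 0 within both numbers. Groups did not overlap for 12 of 41 genes (29.3%), against 27.9% of all rows. All 5 measured stromal markers also lay below wild-type in homozygous cells, with a median log2 difference of -0.44. In hemizygous cells 4 of the 5 did, with a median of -0.32. The 10 stem cell markers had medians of 0.08 in homozygous cells, with 7 above 0, and 0.17 in hemizygous cells, with 9 above 0. The 3 neural markers had medians of 0.08 in homozygous and 0.24 in hemizygous cells, with 2 above 0 in each. The 2 blood and immune markers had medians of 0.06 and -0.05 in the same order, and the 1 trophoblast marker was at -0.23 and 0.19. The part of all these markers in the proteasome differences was not tested.

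With both mutants averaged, edgeR called 0 of 41 proteasome genes and 0 of 16199 rows (0%) against wild-type, and DESeq2 called 10 rows, none a proteasome gene. At an unadjusted p under 0.05, edgeR counted 0 of 41 genes and 1.94% of rows. The 4 mutant libraries did not overlap with wild-type for 2 of the 41 genes (4.88%) and for 8.87% of all rows. These were PSMA4, higher at a log2 difference of 0.09 (SE 0.11), and PSMF1, lower at -0.15 (SE 0.12). The median over the 41 genes was -0.00, and 0.01 with upper-quartile scaling, and over all rows it was -0.01. Besides these genes, PSMA6 at -0.15, PSMD11 at -0.13 and PSMD4 at 0.09 were among the 5 of smallest p, and for PSMA6 the difference was -0.02 without wild-type replicate 1.

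**Figure D3:**
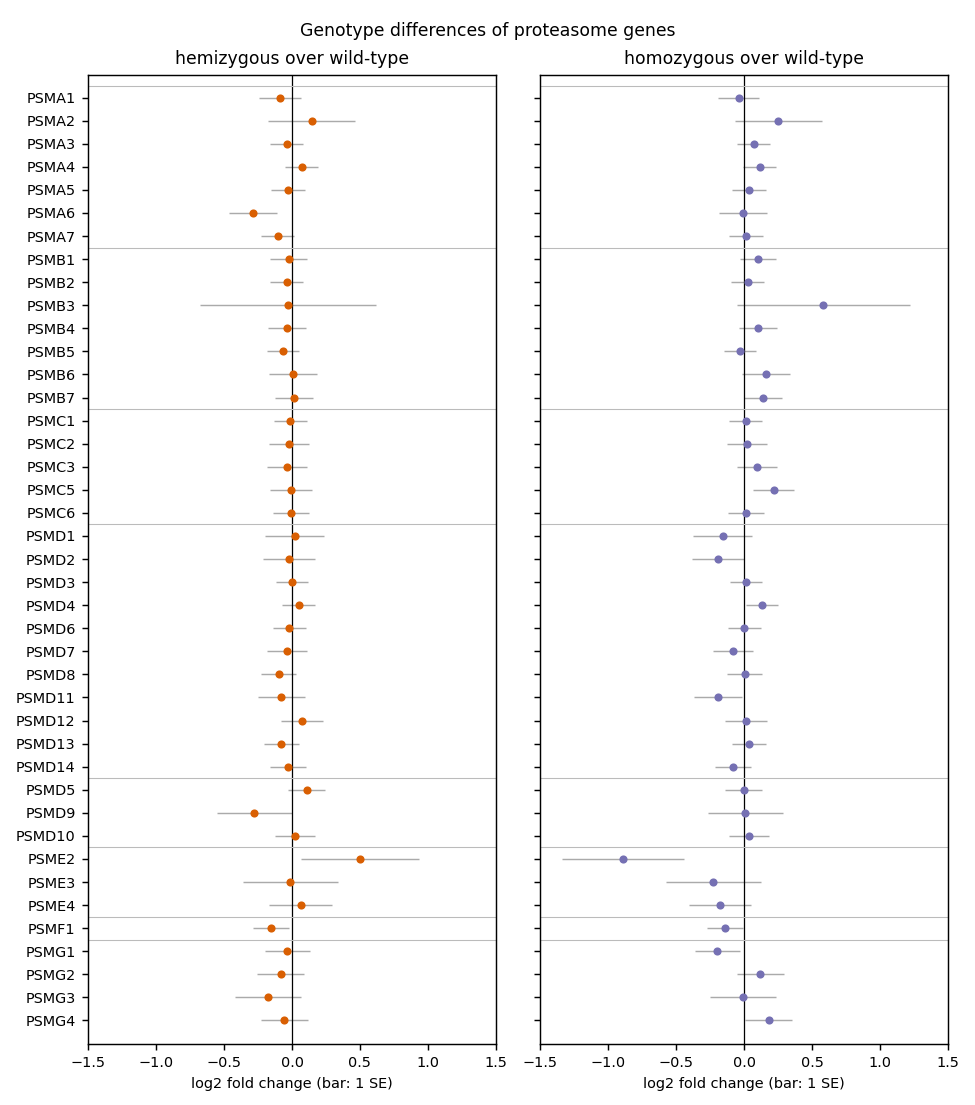
Log2 fold change of each of the 41 proteasome genes in hemizygous over wild-type cells (left) and homozygous over wild-type cells (right), with bars of 1 standard error from edgeR. Bars cross 0 for most genes, no gene passed at an adjusted p under 0.05, and PSME2 lies at 0.50 on the left and -0.89 on the right.

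Homozygous set against hemizygous cells gave the widest single difference. PSME2 was at a log2 fold change of -1.39 (SE 0.45, edgeR adjusted p = 0.999), which did not pass. It was -0.82 without homozygous replicate 1 and -2.35 without homozygous replicate 2. By edgeR 0 of 41 proteasome genes and 0 of 16199 rows (0%) were called, DESeq2 called 10 rows and none of the 41, and an unadjusted p under 0.05 was reached by PSME2 alone of the 41 genes (2.44%) and by 0.765% of rows. In the order of p, PSMA6 followed at 0.28, PSMC5 at 0.23, PSMG4 at 0.24 and PSMG2 at 0.20. By size, PSMB3 at 0.61 and PSMD9 at 0.29 came after PSME2, both with few counts. The difference in PSMC5 was 0.11 without hemizygous replicate 1.

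All 14 core genes were above 0 in homozygous over hemizygous cells, with differences from 0.03 to 0.61 and a median of 0.12 on the log2 scale, while 49.9% of all rows were above 0 and none of the 14 passed the test. Within libraries numbered 1, 12 of 14 core genes were above 0 with a median of 0.11, and within libraries numbered 2, 12 of 14 with a median of 0.08. The core median was 0.04 without hemizygous replicate 1, the library with the lowest summed core level. The count above 0 was 14 of 14 under each scaling and tool run, and 12 to 14 of 14 as each library was left out. Stromal markers differed in the same comparison, with 4 of 5 below 0 and a median of -0.48. Among libraries numbered 1, 5 of 5 were below 0 (median -0.77), and among libraries numbered 2, 2 of 5 (median 0.06). The 3 neural markers had a median of -0.37, with 2 below 0, and the 1 measured trophoblast marker was at -0.42. The 2 blood and immune markers had a median of 0.11 and the 10 stem cell markers one of 0.00. None of all these markers was called. Their part in the core difference was not tested. The cap median was 0.02, with 12 of 19 above 0, but 8 of 19 were above 0 among libraries numbered 2 (median -0.02) and 6 of 19 without homozygous replicate 1 (median -0.03). The median of the other 8 genes was -0.07, and 0.04 without hemizygous replicate 1. Groups did not overlap for 12 of the 41 genes (29.3%), and for 21.4% of rows. The comparisons of each mutant with wild-type and with each other share libraries, so their values are set side by side and not counted as separate support.

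RefSeq lists 6 pseudogenes of PSME2, and it overlaps MIR7703, so reads of copies and of the overlapping gene cannot be told apart from its own. The rows of the copies PSME2P1 and PSME2P2 were under 1 CPM in each library. For PSMA6, RefSeq lists 4 pseudogenes and an overlap with PRORP-PSMA6, so the same limit holds there. The row of its copy PSMA6P1 had 3.52 to 3.99 CPM, while PSMA6 had 8.16 to 10.8 CPM.

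**Figure D4:**
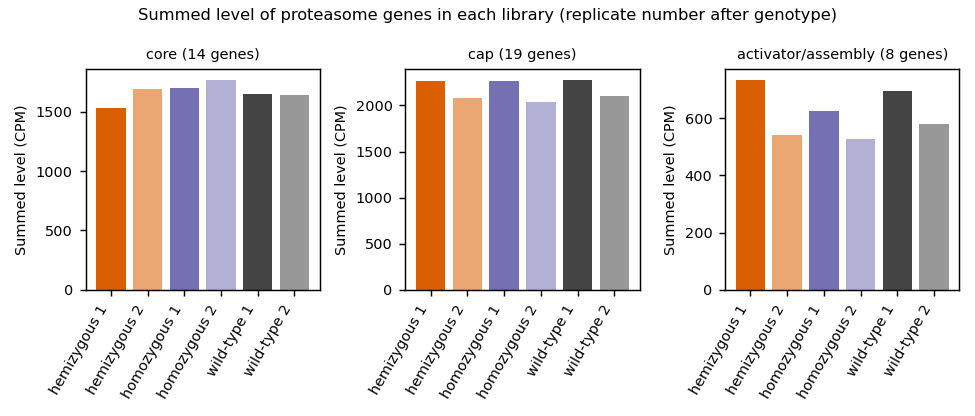
Summed level in CPM of the 14 core genes, the 19 cap genes and the 8 activator, inhibitor and assembly genes in each of the 6 libraries, ordered as hemizygous, homozygous and wild-type replicates 1 and 2. Cap sums and sums of the activator, inhibitor and assembly genes are higher in replicate 1 of each genotype, though only 4 of those 8 genes had a fitted difference above 0. Core sums are lower in replicate 1 of both mutants and nearly level in wild-type cells.

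By replicate number, with 3 libraries against 3, 6 of the 41 proteasome genes were called (14.6%), a smaller share than the 20.5% of all rows. They were 3 cap subunits, 2 activators and the chaperone PSMG3, and the difference between classes was not tested. The labels do not say what the number stands for, and libraries were set against each other by it because earlier results of these data showed them to separate that way. The summed cap level was 2264 and 2079 CPM in hemizygous replicates 1 and 2, 2261 and 2039 CPM in homozygous cells, and 2278 and 2104 CPM in wild-type cells. The core summed to 1528 and 1693 CPM in hemizygous cells, 1694 and 1767 CPM in homozygous cells, and 1644 and 1641 CPM in wild-type cells. Cap counts were therefore 148% and 123% of core counts in hemizygous cells, 133% and 115% in homozygous cells, and 139% and 128% in wild-type cells, a ratio within each library that scaling does not alter. All 3 libraries numbered 1 had a higher ratio than all 3 numbered 2. Sums are weighted by genes of many counts, and the cap genes of highest mean level, PSMD2 and PSMD1, were among those called. How often sums of other gene sets separate in this way was not tested. The activator, inhibitor and assembly genes summed to 734 and 542 CPM in hemizygous cells, 625 and 528 CPM in homozygous cells, and 694 and 581 CPM in wild-type cells. That sum is weighted by PSME3 and PSME4, which hold the most counts of the 8 genes. By gene, 4 of the 8 were above 0 in replicate 1 over replicate 2 and 4 below, with a median log2 difference of -0.05.

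With genotype in the model, edgeR called 6 of 41 proteasome genes between replicates 1 and 2. In replicate 1, 5 were higher (12.2%, against 12% of rows) and 1 was lower (2.44%, against 8.5% of rows). PSME3 rose by a log2 difference of 0.68 (SE 0.09, edgeR adjusted p = 0.0120), PSME4 by 0.40 (SE 0.08, adjusted p = 0.0222) and PSMD1 by 0.38 (SE 0.08, adjusted p = 0.0207). PSMD1 is the large scaffold of the cap base, with 257 and 184 CPM in hemizygous replicates 1 and 2, 214 and 176 CPM in homozygous cells, and 245 and 190.0 CPM in wild-type cells.

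The other calls were nearer the threshold. PSMD11, a scaffold of the cap lid, had 164 and 129 CPM in hemizygous replicates 1 and 2, 146 and 125 CPM in homozygous cells, and 168 and 142 CPM in wild-type cells, and rose by 0.27 (SE 0.07, edgeR adjusted p = 0.0403). PSMD2, the docking subunit for shuttle proteins, was named after its call was seen. It had 307 and 225 CPM in hemizygous cells, 261 and 213 CPM in homozygous cells, and 284 and 257 CPM in wild-type cells, and rose by 0.30 (SE 0.08, edgeR adjusted p = 0.0471). PSMG3 fell by 0.40 (SE 0.10, edgeR adjusted p = 0.0319).

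None of the 14 core genes was called by edgeR with TMM factors and all 6 libraries, and 2 reached an unadjusted p under 0.05, as did 38.6% of all rows. Nor were the 5 ATPases or 3 chaperones of the cap. The median log2 difference was -0.04 in the core, with 10 of 14 genes below 0, while all rows had a median of -0.00. It was 0.07 in the cap, with 14 of 19 above 0, and -0.00 there with upper-quartile scaling. In all 3 genotypes alike, replicate 1 lay on the same side of replicate 2 for 23 of 41 genes (56.1%), and for 58.2% of rows.

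These calls depended on libraries and scaling. In the replicate comparison a genotype left with 1 library is fitted by its own mean and adds nothing to the difference. Leaving out either library of a genotype therefore compares the other 2 genotypes alone, with 2 libraries against 2. The 2 fits for a genotype are nearly the same test and not separate checks. Without hemizygous replicate 1 or hemizygous replicate 2, edgeR called 0 of 41 genes and 1 or 3 rows. Without homozygous replicate 1 or replicate 2 it called 11 of 41, and without wild-type replicate 1 or 2 it called 2 or 1, PSME3 being called in both. Upper-quartile and library-size scaling lowered the replicate difference of all rows by less than 0.1 on the log2 scale, and PSMD11 and PSMD2 were then not called. PSMD2 was also lost with RLE scaling. The core gene PSMB6, lower in replicate 1 of every genotype, was called under upper-quartile and library-size scaling, by DESeq2 and without either homozygous library. Another core gene, PSMB3, was also called without either homozygous library, but was higher in replicate 1. It had 24 to 122 counts a library. The share of called rows that were higher in replicate 1 was 58.5% with TMM factors, 37.5% with upper-quartile and 39.6% with library-size scaling.

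**Figure D5:**
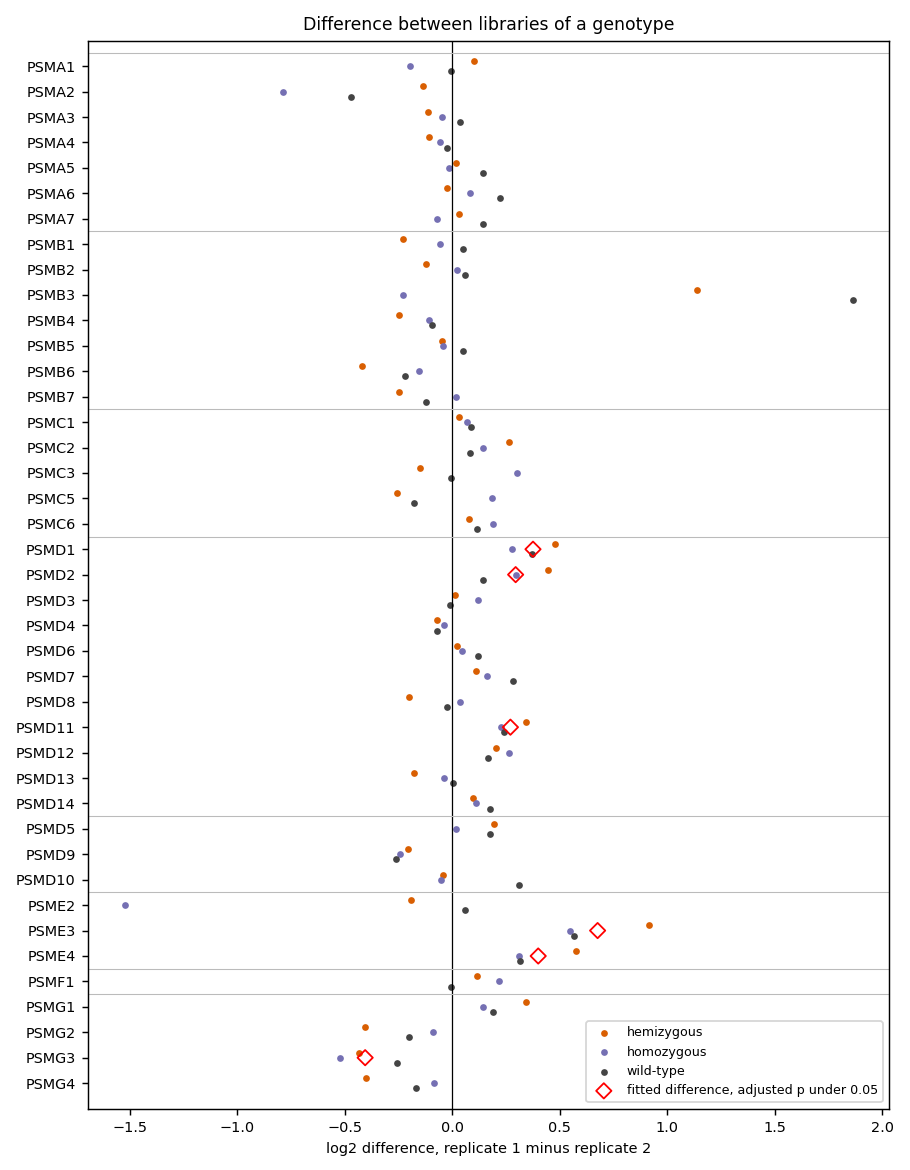
Log2 difference of replicate 1 minus replicate 2 within hemizygous, homozygous and wild-type cells for each of the 41 proteasome genes, with open diamonds at the fitted difference of genes called by edgeR at an adjusted p under 0.05. The diamonds lie among cap subunits, activators and PSMG3, and none lies in the core.

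Genes around the proteasome were read by the same replicate comparison. Of 10 regulators of proteasome genes, 5 were called and all 5 were higher in replicate 1, while 20.5% of all rows were called and 12% were called higher. As for the 41 genes, nearly all calls of the whole table were lost when either hemizygous library was left out. Such a fit compares the replicate numbers in homozygous and wild-type cells alone. DDI2, the protease that releases NFE2L1, had 90.7 and 59.1 CPM in hemizygous replicates 1 and 2, 83.3 and 57.7 CPM in homozygous cells, and 86.6 and 62.9 CPM in wild-type cells, and rose by 0.54 (SE 0.08, edgeR adjusted p = 0.0120). NFE2L1, the transcription factor that raises proteasome genes when the proteasome is impaired, had 356 and 266 CPM in hemizygous cells, 294 and 254 CPM in homozygous cells, and 342 and 266 CPM in wild-type cells, and rose by 0.33 (edgeR adjusted p = 0.0289). BACH1, a repressor at antioxidant elements, rose by 0.33 (edgeR adjusted p = 0.0263).

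The other lists were nearer the 20.5% of all rows. Of 12 partner subunits and bound factors 3 were called, all higher in replicate 1: ECPAS, a scaffold that binds the proteasome, by 0.44, the deubiquitinase USP14 by 0.42 and the ubiquitin ligase UBE3C by 0.33. Of 14 genes for ubiquitin, its activation and its delivery, 2 were called, the shuttle UBQLN1 at 0.43 and the activating enzyme UBA6 at 0.29. In the 4 genotype comparisons edgeR called 0 genes of these 3 lists. Of 5 stromal markers 2 were called by replicate number, both higher in replicate 1, and the 5 summed to 954, 704 and 1048 CPM in hemizygous, homozygous and wild-type replicate 1, and to 763, 736 and 852 CPM in replicate 2, so that the homozygous sum was the lower one in replicate 1. Their part in the replicate differences of proteasome genes was not tested.

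All 41 genes matched RefSeq, assembly GRCh38.p14, on 17 chromosomes. Another RefSeq gene overlapped 18 of them, a protein-coding one 6, and 21 had pseudogenes of their name, 52 in all. Since the use of strand in counting was not given, reads of overlapping genes cannot be told apart. Of the 7 genes averaging under 20.0 CPM, 5 overlapped another gene, as did 13 of the 34 above that level.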

How the data were processed

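The authors deposited whole-number read counts per gene for 6 Ago2 iCLIP libraries, with no normalization. The genome build was hg38, per the submitters' processing notes. For the aligner, the counter, the annotation, strand and any molecular identifiers, nothing is given in the sources used here. Control pull-downs with IgG were not used here. The lowest row total was 132, so the table holds no rows of very few counts. Members and gene lists were chosen with earlier results of these data known.

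Counts were scaled with TMM factors, and filterByExpr kept all 16199 rows. In R 4.3.3, edgeR 4.0.16 (glmQLFit and glmQLFTest) tested every row, with a mean for each of 3 genotypes over 6 libraries. The replicate comparison added the replicate number to that model. A call was a Benjamini-Hochberg adjusted p under 0.05 over all rows. A standard error is the size of the log2 fold change divided by the square root of F. Differences within a replicate number are of log2 CPM with a prior count of 2. The models were run on simulated data with known changes. For the genotype comparisons those data held no difference between replicate numbers, so these models were not checked in its presence.

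Values in every library were to be given for the proteolytic core subunits, the PSME, PSMF and PSMG genes, the 5 members of smallest p in each comparison and the most and least even member, with up to 3 partner genes a list. Some listed genes are not reported here. Every result was recomputed with DESeq2 1.42.0 and limma-voom 3.58.1, with RLE, library-size or upper-quartile scaling, without a filter or with at least 20 counts in 2 libraries, with only the libraries being compared, with a replicate block, and without each library. Promoters and gene overlaps come from RefSeq tables of GRCh38.p14, matched by gene symbol. Libraries held 38.2 to 52.9 M counts.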

Additional observations from a re-analysis of the deposited data

Results flagged for a closer look

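PSME2, the interferon-inducible activator subunit, moved to opposite sides of wild-type in the 2 mutants. Its level was 12.4 and 14.2 CPM in hemizygous cells, 2.60 and 7.56 CPM in homozygous cells, and 9.60 and 9.21 CPM in wild-type cells. The difference between the mutants was -1.39 on the log2 scale, homozygous over hemizygous (SE 0.45), which edgeR put at an unadjusted p under 0.05 and which did not pass after adjustment over all rows (adjusted p = 0.999). The homozygous side leaned on replicate 1, at 2.60 CPM, since replicate 2 had 7.56 CPM and the lower wild-type library 9.21 CPM. Reads of PSME2 pseudogenes and of the overlapping MIR7703 cannot be told apart from its own. All 41 genes and the other listed genes were searched for this pattern, and only PSME2 showed it. Such opposite sides were seen in 115 of 16199 rows (0.71%).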

How the results depend on the processing

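Genotype comparisons called no proteasome gene under any setting run, so no called direction turned, but uncalled differences of single genes changed sign in 31 of 405 repeats for hemizygous and 9 of 405 for homozygous against wild-type, 28 of 392 for both mutants and 12 of 390 for homozygous against hemizygous. DESeq2 called 7 rows for hemizygous against wild-type and 10 in each of the other 3 genotype comparisons, where edgeR called 0. The replicate block gave 1 row for hemizygous against wild-type and 1 for homozygous against hemizygous, and changed no call of a proteasome gene. The replicate number is shared by libraries but is not said to mark a batch.

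The median log2 difference between replicates 1 and 2 became -0.033 over the 41 genes with upper-quartile and -0.027 with library-size scaling, -0.0038 for the cap with upper-quartile scaling, and -0.11 for the core with both. With each library left out, genotype comparisons called 0 to 2 rows for hemizygous and for both mutants against wild-type, 0 to 1 for homozygous against wild-type and 0 to 3 for homozygous against hemizygous. The replicate comparison then called 1 to 6266 rows and 0 to 11 of the 41 genes, with a median over them of -0.032 to 0.054.

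Left-out libraries also moved class medians. The core ran from -0.094 to 0.027 in hemizygous over wild-type, from 0.038 to 0.11 in homozygous over wild-type and from 0.038 to 0.15 in homozygous over hemizygous cells. The cap ran from -0.069 to 0.047, from -0.047 to 0.069 and from -0.033 to 0.062 in the same comparisons. The activator, inhibitor and assembly genes ran from -0.26 to -0.035 in homozygous over wild-type and from -0.18 to 0.038 in homozygous over hemizygous cells. The cause of these shifts was not tested, and each such fit has 1 genotype with a lone library, assumed to vary like the others. Depth limits PSMB3 and PSMD9 most, with 24 to 122 counts a library.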

Other observations

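Replicate differences were shared between genotypes to differing degrees, most between hemizygous and wild-type cells and least between homozygous and wild-type cells. The correlation across genes of the replicate 1 minus replicate 2 difference, as a description, was 0.74 over 16199 rows and 0.82 over the 41 proteasome genes between hemizygous and wild-type cells. It was 0.36 and 0.20 between homozygous and wild-type cells, and 0.48 and 0.39 between hemizygous and homozygous cells. Genes are not independent replicates, and each difference rests on 2 libraries. Of the 41 genes, PSMB3 had the largest difference in hemizygous (1.14) and wild-type cells (1.86), but -0.23 in homozygous cells. It had 24 to 122 counts a library, and its part in these correlations was not tested.

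The antisense row PSMA3-AS1 had 28.1 and 30.9 CPM in hemizygous cells, 31.0 and 35.7 CPM in homozygous cells, and 27.3 and 25.8 CPM in wild-type cells, with both mutants above wild-type. Its log2 difference over both mutants was 0.24 (SE 0.12, edgeR adjusted p = 1.00). PSMA3, which it overlaps, had 134 and 145 CPM in hemizygous cells, 148 and 153 CPM in homozygous cells, and 145 and 142 CPM in wild-type cells. PSMA3-AS1 was singled out after its values were seen.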
